A study of Mus musculus with 4 samples.

Results

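The genes followed here across the cell classes of embryonic mouse skin are Adamts9, 9530026P05Rik, Sox5, Slitrk6, Cdh4, Ror1, Tspear, Slc24a3 and Wnk2, 9 of the 56980 genes in the count matrices. They were selected on their UMI counts (unique molecules counted) and shares of positive cells in basal, suprabasal and hair follicle cells of these same libraries, as genes lower in H3K9 methyltransferase triple knockout (TKO) than in control (Ctrl) basal and suprabasal keratinocytes. The difference in these 3 classes is therefore a description. Calls of a fit across all genes are printed for it and support nothing. Each symbol was found once in the matrices. Single-cell RNA-seq libraries were made from dorsal skin cells sorted for Epcam and α6 integrin, labelled E16.5, from 2 Ctrl and 2 TKO embryos, with 1 library per embryo. Both groups carried Suv39h1 f/f, Suv39h2-/- and Setdb1 f/f alleles and received tamoxifen. Ctrl embryos were K14CreERT2- and TKO embryos were K14CreERT2+, where the keratin 14 promoter drives a tamoxifen-dependent Cre in basal keratinocytes. The Ctrl animals are thus Cre-negative littermates that lack Suv39h2 as well, and the study describes the loss of H3K9me3 in TKO skin as mosaic. Its list of litters gives an earlier embryonic day for single-cell work than the labels do.

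Suv39h1, Suv39h2 and Setdb1 are the enzymes that deposit H3K9me3, which marks silent chromatin. In developing epidermis, basal keratinocytes attach to the basement membrane and divide, suprabasal cells differentiate as they leave it, and hair follicles grow down from the basal layer. The 9 genes act in different processes. Adamts9 encodes a secreted metalloprotease that cleaves the proteoglycan versican, and 9530026P05Rik is a long non-coding RNA gene on the opposite strand. Sox5 encodes a DNA-binding protein of the SoxD group that often works together with Sox6. At the cell surface, Slitrk6 is a leucine-rich-repeat receptor known from synapse formation, Cdh4 is R-cadherin, a cell adhesion protein, and Ror1 is a receptor tyrosine kinase-like protein that binds Wnt5a. Tspear is a secreted protein whose loss causes a human ectodermal dysplasia of teeth and hair. Slc24a3 exchanges sodium for calcium and potassium across the membrane, and Wnk2 is a kinase of a family that regulates ion cotransporters.

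The 4 libraries held 70749496 to 89655247 UMIs in 3804 to 5785 barcodes. After filtering, 10764 cells remained, and 39 barcodes occurred in more than 1 library. Cells were named from marker genes and are called basal-like, differentiating-like (the suprabasal cells), hair follicle-like and fibroblast-like. There were 1592 and 1822 basal-like cells in Ctrl 1 and Ctrl 2 and 1121 and 1068 in TKO 1 and TKO 2. Differentiating-like cells numbered 638, 400, 169 and 328, and hair follicle-like cells 469, 617, 217 and 344, in the same order. Of the targeted genes, Setdb1 had 72.9 and 59.0 CPM (the UMIs of a gene scaled so that the sums of all classes and libraries are equal) in Ctrl and 40.8 and 43.9 CPM in TKO basal-like cells. Suv39h1 had 31.2 and 28.9 CPM in Ctrl against 27.9 and 23.7 CPM in TKO, and Suv39h2, deleted in both groups, had 17.1 and 19.1 against 24.8 and 18.2 CPM. The assay counts transcript 3' ends, and a 3' end outside the deleted part says nothing on its removal.

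Where the genes lie is shown first, since Adamts9 and 9530026P05Rik share a stretch of chromosome 6. On GRCm39 (GENCODE vM39), Adamts9 runs on the minus strand from 92749680 to 92920520, and 9530026P05Rik on the plus strand from 92917271 to 93250030. The genes share 3250 bases, in which 0 bases are exonic in both, and their canonical transcripts start 3237 bases apart. The 250 bases before the 9530026P05Rik start lie inside Adamts9 and hold 0 bases of an Adamts9 exon. Sequences of 250 bases ending just before the start of the canonical transcript are given for this overlapping pair and, as the members of lowest and highest GC content, for Slitrk6 and Slc24a3, each 5′ to 3′ on the strand of its gene. Capitals mark matches on either strand to AP-1 (TGANTCA), the E-box (CANNTG) and the GC box (GGGCGG).
Adamts9, chr6:92920521-92920770, minus strand: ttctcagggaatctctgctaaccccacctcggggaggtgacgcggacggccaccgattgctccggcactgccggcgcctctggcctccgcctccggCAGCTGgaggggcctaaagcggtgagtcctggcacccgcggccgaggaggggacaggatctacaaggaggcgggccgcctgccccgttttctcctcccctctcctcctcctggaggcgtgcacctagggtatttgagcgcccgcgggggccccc
9530026P05Rik, chr6:92917033-92917282, plus strand: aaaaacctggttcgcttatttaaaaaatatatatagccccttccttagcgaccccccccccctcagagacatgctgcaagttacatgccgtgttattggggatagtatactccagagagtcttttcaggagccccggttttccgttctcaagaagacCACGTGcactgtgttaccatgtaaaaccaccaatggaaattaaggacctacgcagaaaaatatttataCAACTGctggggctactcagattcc
Slitrk6, chr14:110992585-110992834, minus strand: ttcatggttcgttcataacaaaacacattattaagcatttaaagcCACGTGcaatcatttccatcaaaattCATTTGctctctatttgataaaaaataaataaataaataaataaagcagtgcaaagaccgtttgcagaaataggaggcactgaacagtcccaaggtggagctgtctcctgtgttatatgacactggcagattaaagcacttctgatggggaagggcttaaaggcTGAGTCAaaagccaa
Slc24a3, chr2:145009424-145009673, plus strand: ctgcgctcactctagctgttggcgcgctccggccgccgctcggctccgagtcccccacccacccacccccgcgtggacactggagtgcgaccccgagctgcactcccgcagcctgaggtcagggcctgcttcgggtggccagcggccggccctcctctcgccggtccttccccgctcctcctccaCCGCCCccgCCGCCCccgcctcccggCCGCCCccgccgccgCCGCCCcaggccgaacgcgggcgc

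GC content of the upstream stretches was above the median of all genes in 7 of the 9 members, and the CpG count was above it in all but Slitrk6. GC content went from 37.2% in Slitrk6 and 44.8% in 9530026P05Rik to 70% in Adamts9 and 79.2% in Slc24a3, against a median of 49.6% over 54652 coding and lncRNA genes. CpG counts ran from 3 in Slitrk6 to 33 in Slc24a3, and the median of all genes was 4. An AP-1 match occurred in 1 of 9 members, at 15 bases before the Slitrk6 start, and in 7.6% of all genes. E-boxes were found in 5 of 9 members and in 69.2% of all genes, and a GC box in 5 of 9 and 23.5%. A match to the p63 motif was found in 0 of 9 members and in 7.33% of all genes. These are letter matches in a short window and do not show binding.

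The other members are spread over several chromosomes. Sox5 is on chromosome 6 from 143774151 to 144727703 (minus strand), Slitrk6 on chromosome 14 from 110986012 to 110992584 (minus), and Cdh4 on chromosome 2 from 179084201 to 179541166 (plus). Ror1 is on chromosome 4 from 99952988 to 100301990 (plus), Tspear on chromosome 10 from 77522403 to 77722855 (plus), Slc24a3 on chromosome 2 from 145009674 to 145484086 (plus), and Wnk2 on chromosome 13 from 49189759 to 49301525 (minus). All but Slitrk6 span more than 100 kb. The median span of the members was 332.8 kb, against 20.94 kb over all genes tested in basal-like cells, 34.98 kb for the genes lowered there and 20.1 kb for the genes raised. Exons made up 0.984% of the Slc24a3 span and 64.6% of the Slitrk6 span. Whether intronic reads were counted was not given in the sources used here, and long introns would then add to the counts. Tspear also overlaps keratin-associated protein genes of both strands, so its counts may be split with theirs. All members but Slitrk6 and Wnk2 overlap an annotated gene on the opposite strand.

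In basal-like cells each of the 9 genes was lower in both TKO libraries than in both Ctrl libraries. With the fit across all genes, 9 of 9 were among the lowered genes. Of the 18005 genes tested, 4.98% were lowered at an edgeR adjusted p under 0.05 and 8.95% were raised. Since this contrast chose the members, nothing is read from the count. The size of the difference is the description: fitted log2 changes ran from −5.98 (Adamts9) to −1.92 (Wnk2), with a median of −2.47, and the median over all genes was −0.01. Bulk sums per class cannot separate fewer expressing cells from less RNA in each.

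**Figure D1:**
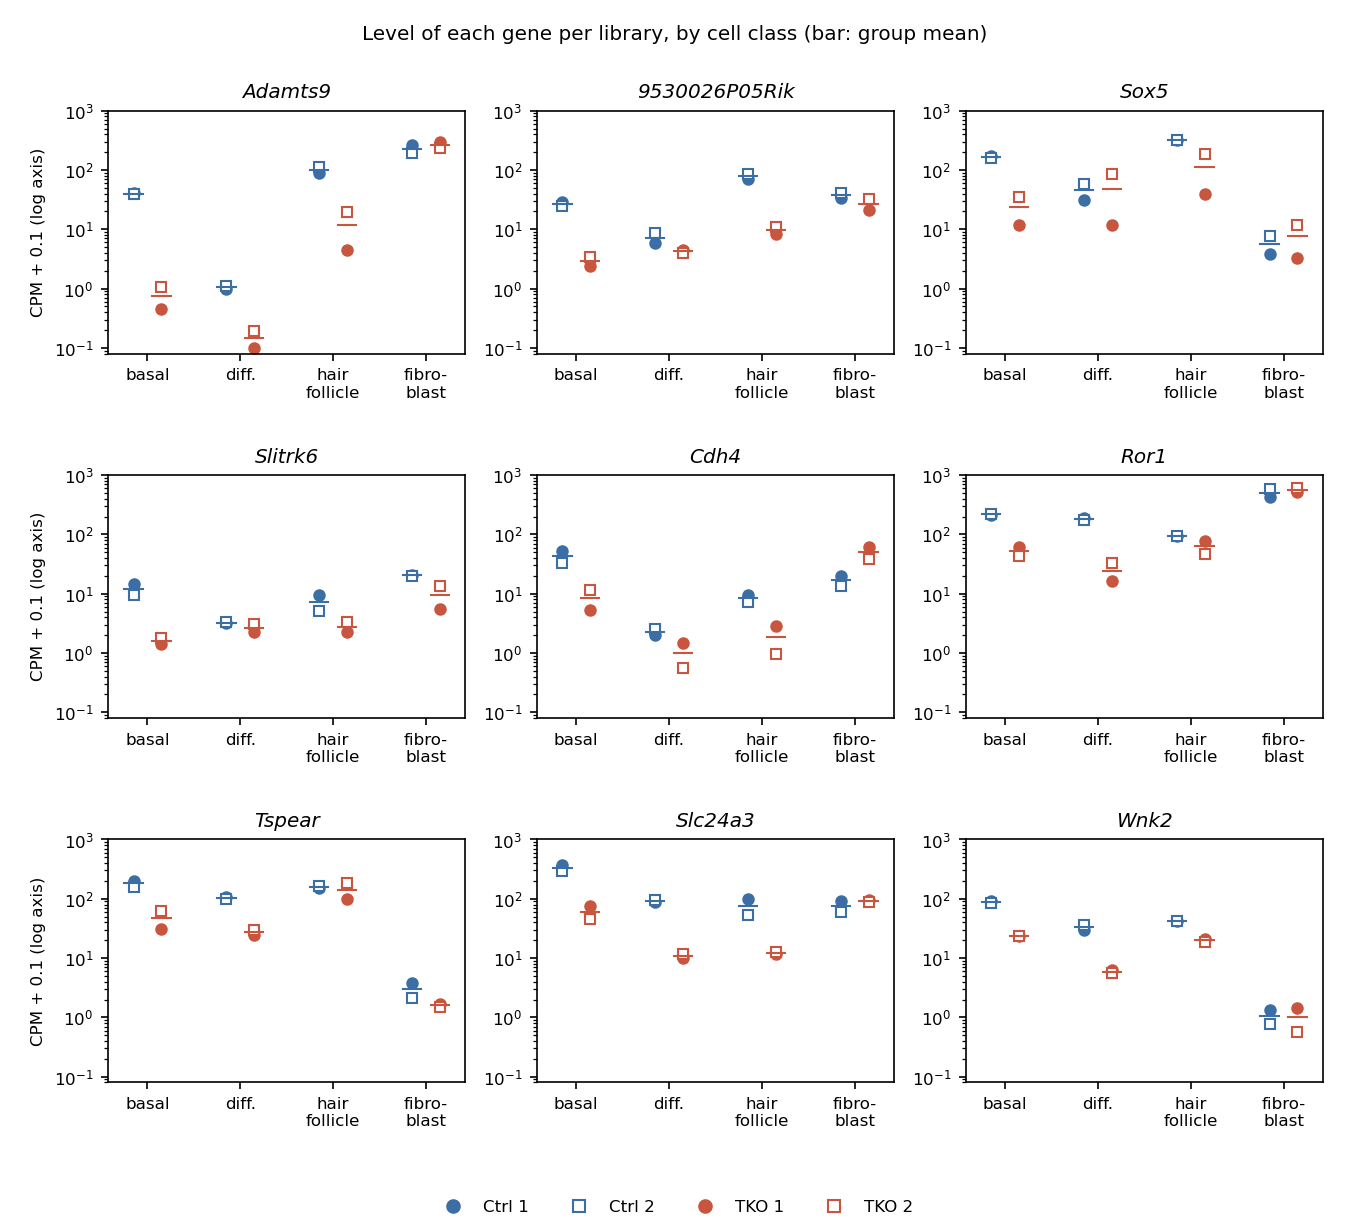
Level of the 9 genes in each library, as CPM plus 0.1 on a log axis, in basal-like, differentiating-like, hair follicle-like and fibroblast-like cells. Filled circles are replicate 1, open squares replicate 2, blue Ctrl and red TKO, with a bar at each group mean; in basal-like cells the red and blue points are apart for all 9 genes, whereas in fibroblast-like cells Adamts9, Ror1 and Slc24a3 overlap.

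Adamts9 showed the largest difference. Its level in basal-like cells was 40.2 CPM in Ctrl 1, 39.8 in Ctrl 2, 0.347 in TKO 1 and 0.946 in TKO 2. The Ctrl libraries were close to each other, and the TKO mean was 1.62% of the Ctrl mean. The fitted log2 change was −5.98 (SE 0.340), or −6.86 without TKO 2 and −5.37 without TKO 1. When every cell was thinned to 5000 UMIs, an Adamts9 UMI was found in 13.8% of Ctrl 1 cells (exact binomial 95% interval, Clopper-Pearson, 12.1 to 15.6) and 14.8% of Ctrl 2 cells (13.1 to 16.47). In TKO these shares were 0.269% (0.0554 to 0.783) and 0.376% (0.102 to 0.959), or 3 of 1117 and 4 of 1065 cells. Immune-like cells, taken as background, held one in 1.08% to 4.53% of cells, so the TKO shares are not read as expression. The TKO cells were the deeper ones, with a median of 30537 and 28599 UMIs in basal-like cells, against 21134.5 and 17390 in Ctrl. Unthinned, the shares were 33.5% and 30.9% in Ctrl and 1.16% and 1.87% in TKO. These intervals cover counting error only.

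The opposite-strand transcript 9530026P05Rik had 28.7 and 24.5 CPM in Ctrl and 2.32 and 3.33 CPM in TKO basal-like cells, fitted as −3.24 (SE 0.219). In Ctrl cells, transcripts of the pair were found together more often than the product of their shares. At 5000 UMIs, 9530026P05Rik was detected in 13.8% of Ctrl 1 and 14.7% of Ctrl 2 basal-like cells with Adamts9, and in 8.9% and 9.69% of the other cells. In hair follicle-like Ctrl cells the same shares were 36.2% and 39.7% against 16.7% and 21.5%. Cells of a class differ in RNA content and state, and the counting of strands was not stated here, so reads of the overlapping part cannot be assigned with certainty.

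Sox5 was present at 174 and 161 CPM in Ctrl and at 11.6 and 35.2 CPM in TKO basal-like cells, fitted as −2.84 (SE 0.469). The TKO libraries lay far apart, and the change was −3.88 without TKO 2 and −2.23 without TKO 1. At 5000 UMIs, 39.6% and 41.2% of Ctrl basal-like cells held a Sox5 UMI, compared with 5.37% and 12.7% in TKO. In immune-like cells the share was at most 1.56%.

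The 3 surface proteins were lower to different degrees. Ror1 had 215 and 220 CPM in Ctrl and 60.3 and 43.4 CPM in TKO, and the fitted log2 change was −2.08 (SE 0.150). Cdh4 had 52.9 and 33.1 CPM against 5.18 and 11.4 CPM (−2.38, SE 0.392, and −3.08 without TKO 2). Slitrk6, counted with few UMIs, had 14.4 and 9.36 CPM in Ctrl and 1.31 and 1.68 CPM in TKO (−3.0, SE 0.292). Over the alternatives the Slitrk6 change ran from −3.28 to −2.395. At 5000 UMIs, a Ror1 UMI was found in 40.3% and 43.7% of Ctrl and in 16.7% and 12.7% of TKO basal-like cells. In immune-like cells that share was at most 3.13%.

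The TKO mean was 26.1% of the Ctrl mean for Tspear, 26.5% for Wnk2 and 18.2% for Slc24a3. Tspear had 202 and 160 CPM in Ctrl and 31.4 and 63 CPM in TKO. Its log2 change of −1.94 (SE 0.321) was −2.55 without TKO 2. Slc24a3 had 376 and 293 CPM against 75.6 and 46.0 CPM (−2.47, SE 0.234). Wnk2 was the steadiest between replicates, with 90.98 and 84.7 CPM in Ctrl and 23.0 and 23.6 CPM in TKO (−1.92, SE 0.103). At 5000 UMIs, 11.3% and 10.3% of TKO basal-like cells held a Wnk2 UMI, against 32.8% and 32.3% in Ctrl and 0% to 3.13% of immune-like cells. Immune-like cells held Slc24a3 at 52.2 to 80.6 CPM, with a UMI in 14.03% to 29.7% of cells, and so give no background for it. TKO cells held a Slc24a3 UMI in 21.3% and 14.3% of the basal-like class, in 1.18% and 6.10% of the differentiating-like class and in 5.99% and 3.23% of the follicle class.

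Markers of the class itself and of other cell types moved with genotype in these sums. The 9 basal markers summed to 18620 and 21420 CPM in Ctrl and 14200 and 18140 CPM in TKO, with 4 lower and 1 higher in both TKO libraries. Merkel markers were at 28.2 and 24.9 CPM against 20.7 and 14.7 CPM (4 of 8 lower, 1 higher). Melanocyte markers were at 6.75 and 6.91 CPM against 10.8 and 8.64 CPM (1 of 7 lower, 2 higher). The 10 differentiating markers summed to 2117 and 1427 CPM in Ctrl and 562 and 1142 CPM in TKO basal-like cells, with 5 of 10 lower in both TKO libraries. Muscle markers were at 0.639 and 0.934 CPM against 26.2 and 6.84 CPM, and endothelial markers at 16.7 and 18 CPM against 36.1 and 24.15 CPM. The 8 fibroblast markers summed to 1278 and 1489 CPM in Ctrl and 1029 and 897 CPM in TKO basal-like cells, with 3 of 8 lower in both TKO libraries. In fibroblast-like cells, which were still present after the sort, the same markers summed to 36510 to 47630 CPM. The 9 immune markers summed to 1.39 and 2.95 CPM in Ctrl and 4.38 and 6.99 CPM in TKO basal-like cells. Adamts9 had 229 ± 52.7 CPM in Ctrl fibroblast-like cells and Ror1 had 503 ± 109 CPM (SD, n = 2). The part of these RNAs in the members' differences was not tested.

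The clusters were made without the genes that differed between genotypes and on components corrected for library. On uncorrected components some clusters were almost of 1 genotype and others held both. A cluster led by 1700030N03Rik and Anks1b then held 3 and 0 Ctrl and 163 and 140 TKO cells, a cluster led by Bex1 and Gabrg3 7 and 2 Ctrl and 324 and 95 TKO cells, both unnamed, and the largest basal-like cluster 630 and 515 Ctrl and 23 and 236 TKO cells. A differentiating-like cluster led by Zfp750 and Notch3 held 236 and 190 Ctrl and 97 and 115 TKO cells, and a follicle cluster led by Shh and Tll1 held 83 and 155 Ctrl and 53 and 111 TKO cells. The 9 members were in the lowered set of basal-like cells with the uncorrected components too. That fit leaves those unnamed cells out but keeps the contrast that chose the members. With the correction, 10 basal-like clusters resulted. They part the cells on which the genes were chosen, and no such count was made over all genes. What follows is therefore only a description. For 7 of the 9 genes both TKO libraries were below both Ctrl libraries in all 10 clusters. The exceptions were Adamts9 in a small cycling cluster led by Ube2c and Hmmr, where 1 Ctrl library was at 0, and Cdh4 in the cluster led by Anks1b and Npffr1. There Cdh4 had 69.8 and 58.3 CPM in Ctrl, and 3.64 in TKO 1 but 59.7 in TKO 2. The cluster with the highest Ctrl level differed between genes. Slc24a3 reached 653 CPM and Slitrk6 21.3 CPM in that same cluster, while Adamts9 was at 73.4 CPM in a cluster led by Brca1 and Cdc6, of cells in S phase by these genes.

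**Figure D2:**
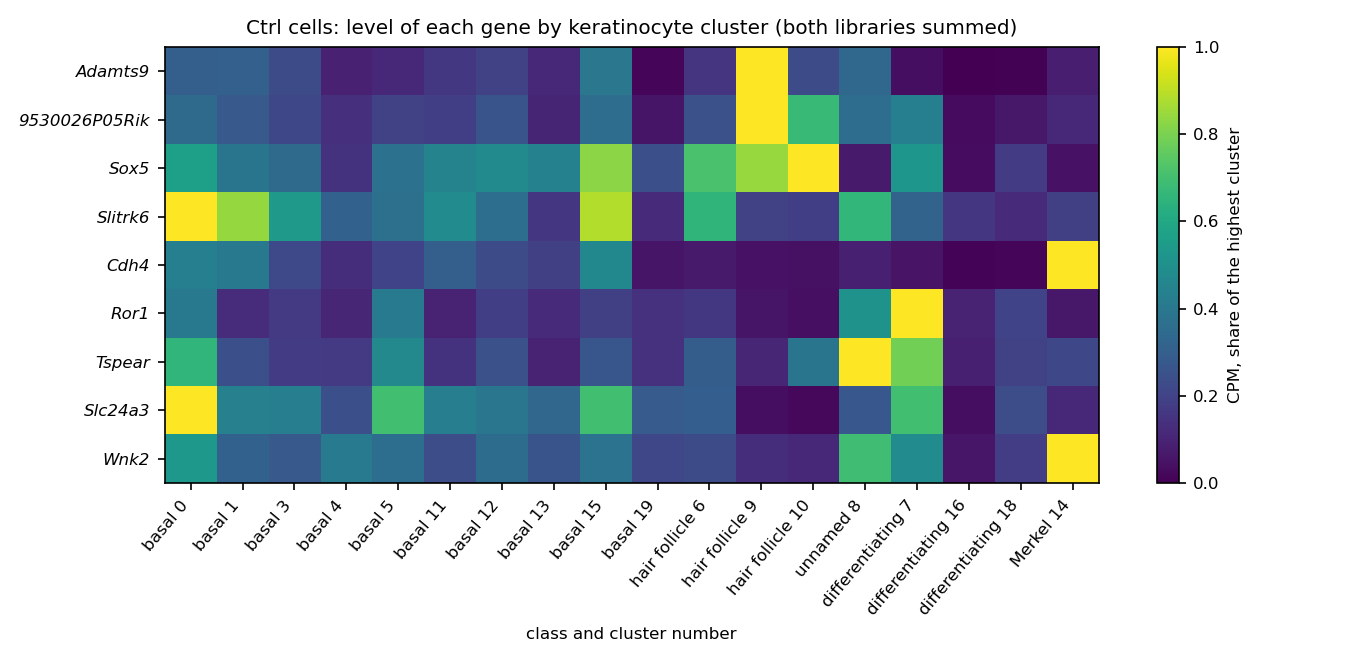
Ctrl level of each gene in the keratinocyte clusters of at least 50 Ctrl cells, both libraries summed, as a share of the gene's highest cluster (colour, from 0 to 1). Adamts9 and 9530026P05Rik are highest in hair follicle cluster 9, Slc24a3 and Slitrk6 in basal cluster 0, Ror1 in differentiating cluster 7, and Cdh4 and Wnk2 in the Merkel-like cells.

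The layers of Ctrl skin differed in which of the 9 genes they held. From basal-like to differentiating-like Ctrl cells, Adamts9 went from 40 ± 0.289 to 0.949 ± 0.0704 CPM, Cdh4 from 43 ± 13.9 to 2.18 ± 0.375 CPM and Slc24a3 from 335 ± 58.8 to 90.9 ± 6.09 CPM (SD, n = 2 each). Ror1 stayed at 218 ± 3.76 and 183 ± 12.6 CPM. In hair follicle-like Ctrl cells, Adamts9 was higher than in basal-like cells, at 102 ± 16.4 CPM, and so were 9530026P05Rik, at 79.2 ± 11.1 against 26.6 ± 2.95 CPM, and Sox5, at 320 ± 6.81 against 168 ± 9.36 CPM. The pair peaked in the hair follicle cluster led by Lgr5 and Nlgn1, where Adamts9 had 184.5 CPM and 9530026P05Rik 115 CPM. Classes came from clustering the same cells, and these comparisons were not tested. Ror1 and Slc24a3 were among the 10 leading genes of a cluster counted as basal-like whose other leading genes, such as Notch1, Zfp750 and Grhl3, are known from differentiation and include none of the basal markers. Each of the 9 members was lower in both TKO libraries there, in cells of the class on which they were chosen.

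In differentiating-like cells 8 of the 9 genes passed the filter on low counts, and 4 of the 9 were in the lowered set: Ror1, Tspear, Slc24a3 and Wnk2. In this class 0.609% of 13467 genes tested were lowered and 1.32% raised, and again the rule used this contrast. Ror1 was at 192 and 174 CPM in Ctrl and 16.4 and 32.3 CPM in TKO, and the fitted log2 change was −2.95 (SE 0.318), −2.56 without TKO 1 and −3.58 without TKO 2. Slc24a3 was at 86.6 and 95.2 CPM against 9.98 and 11.7 CPM (−3.12, SE 0.150). Wnk2 was at 29.5 and 36.4 CPM against 6.09 and 5.48 CPM (−2.58, SE 0.187), and Tspear at 107 and 97.4 CPM against 24.7 and 29.7 CPM (−1.98, SE 0.156). The groups were apart for all 4. The content of the class differed by genotype as well: the 10 differentiating markers summed to 59200 and 56800 CPM in Ctrl and 30810 and 45300 CPM in TKO, and the 12 hair follicle markers to 100.5 and 161 against 331 and 346 CPM. Fibroblast markers were at 193 and 310 CPM in Ctrl and 166 and 78.6 CPM in TKO. Immune markers went from 2.02 and 2.89 to 4.74 and 7.86 CPM (6 of 9 higher in both TKO libraries) and melanocyte markers from 5.79 and 5.77 to 17.4 and 10.5 CPM (4 of 7, with Tyrp1 at 0). Muscle and erythroid sums were higher in both TKO libraries too, at up to 2.37 and 40.5 CPM. On uncorrected components much of the class lay in clusters of mostly 1 genotype: a cluster led by Krt16 and Sprr1b held 1 and 0 Ctrl and 67 and 264 TKO cells, and a cluster led by Krt1 and Krt10 held 385 and 249 Ctrl and 26 and 4 TKO cells. Their part in the members' differences was not tested, and whether the changes differ from those in basal-like cells was not tested.

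The other members were near the detection limit or variable there. Adamts9 did not pass the filter, as it was counted with 16 and 9 UMIs in the Ctrl and with 0 and 1 in the TKO libraries. Slitrk6 had 3.09 and 3.22 CPM in Ctrl and 2.20 and 2.93 CPM in TKO, and 9530026P05Rik had 5.73 and 8.43 against 4.397 and 3.93 CPM. Cdh4 had 1.91 and 2.44 CPM against 1.35 and 0.457 CPM. Sox5 did not separate the genotypes: Ctrl had 31.0 and 59.0 CPM, TKO 1 had 11.5 CPM and TKO 2 had 84.6 CPM. Its log2 change of 0.09 (SE 0.809) was −2.04 without TKO 2 and 0.88 without TKO 1. The 925 Sox5 UMIs of TKO 2 were spread over 3 clusters. The cluster led by Mgst1 and Ctsc held 468 of them, at 95.7 CPM against 10.4 CPM in TKO 1 and 62.1 and 77.4 CPM in Ctrl. The cluster led by Ly6g6c and Sprr1b held 244, at 42.8 CPM against 13.4 CPM in TKO 1 and 6.54 and 26.2 CPM in Ctrl. The small cluster led by Rbfox1 and Tmem132d held 213, in 21 cells at 949.5 CPM, against 7.18 CPM in 16 TKO 1 cells and 119.7 and 409.9 CPM in Ctrl. TKO 2 was thus the highest library in each of the 3 clusters, and Ctrl 2 was above Ctrl 1.

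**Figure D3:**
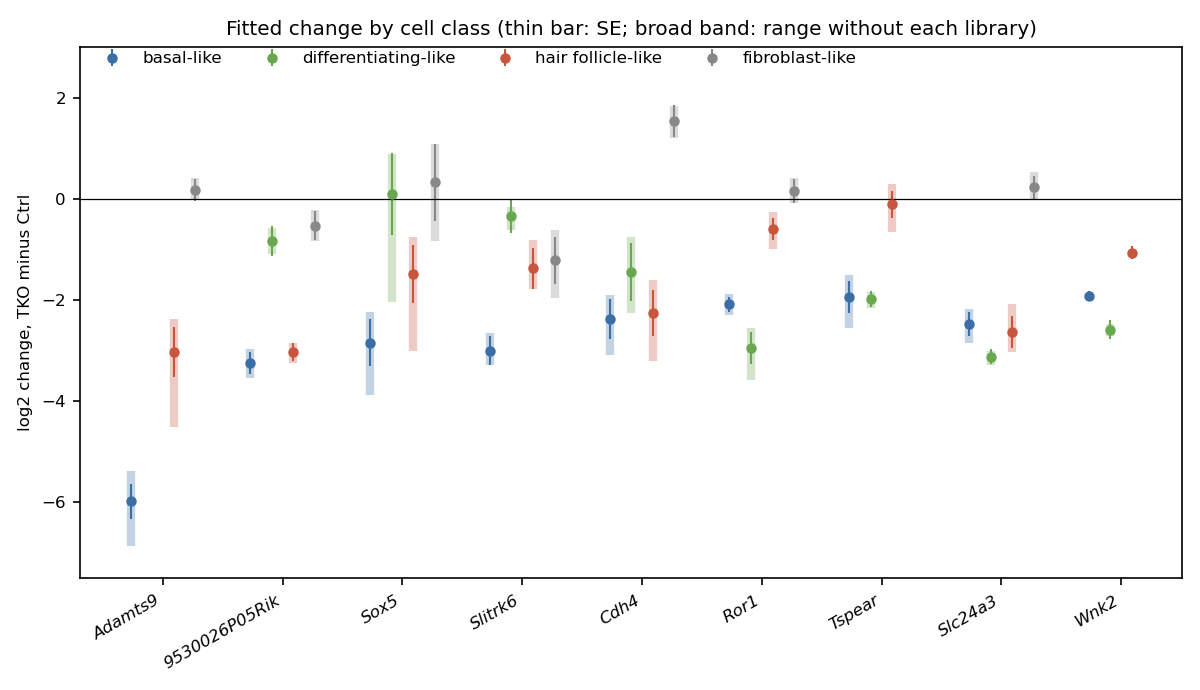
Fitted log2 change, TKO minus Ctrl, of each gene in 4 cell classes. Points are edgeR estimates, thin bars their SE and broad bands the range when each library is left out; Adamts9 lies at −5.98 in basal-like cells and 0.18 in fibroblast-like cells, and the differentiating-like band of Sox5 spans 0.

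In hair follicle-like cells all 9 genes were tested and 5 were in the lowered set: Adamts9, 9530026P05Rik, Cdh4, Slc24a3 and Wnk2. Here 2.6% of 15250 genes were lowered and 2.77% raised, and since the rule used this class too, nothing is read from the count. Adamts9 had 90.1 and 113 CPM in Ctrl and 4.45 and 19.2 CPM in TKO (log2 change −3.03, SE 0.490, −4.51 without TKO 2 and −2.37 without TKO 1). 9530026P05Rik had 71.4 and 87.1 CPM against 8.32 and 10.7 CPM (−3.03, SE 0.179). Slc24a3 had 100.3 and 52.4 CPM against 11.6 and 12.7 CPM (−2.63, SE 0.318), and Wnk2 41.6 and 41.7 CPM against 20.5 and 18.9 CPM (−1.07, SE 0.124). Cdh4 had 9.47 and 7.13 CPM against 2.73 and 0.863 CPM (−2.26, SE 0.461). It left the lowered set without Ctrl 1, without TKO 2, with no low-count filter and at Leiden resolution 0.5, and its log2 change was −3.21 without TKO 1 and −1.60 without TKO 2. With each cell thinned to 5000 UMIs, Wnk2 and Cdh4 were both out of the set.

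Tspear was the member with the closest levels between genotypes in the follicle. It had 153 and 161 CPM in Ctrl and 99.5 and 187 CPM in TKO, so the groups overlapped, and the fitted log2 change was −0.11 (SE 0.264), which was 0.28 without TKO 1 and −0.66 without TKO 2. In the cluster led by Shh and Tll1, Tspear had 219 and 303 CPM in Ctrl and 179.8 and 326 CPM in TKO. Ror1 had 94.1 and 95.3 CPM in Ctrl and 78.6 and 46.6 CPM in TKO (−0.59, SE 0.216). Over the alternatives the Ror1 change ran from −1.26 to −0.27, and Ror1 was in the lowered set at Leiden resolution 0.5. Sox5 had 315 and 325 CPM in Ctrl, 39.7 CPM in TKO 1 and 184 CPM in TKO 2, and its log2 change of −1.48 (SE 0.571) was −3.01 without TKO 2 and −0.76 without TKO 1. Slitrk6 had 9.47 and 4.92 CPM against 2.15 and 3.24 CPM (−1.37, SE 0.411). The immune markers were also higher here in TKO, at 9.18 and 26.0 CPM against 2.11 and 2.97 CPM in Ctrl. Other marker sums moved with genotype in this class. The 10 differentiation markers summed to 359 and 274 CPM in Ctrl against 105 and 209.8 CPM in TKO (5 of 10 with both TKO below both Ctrl), with Flg and Ivl at 0. The 7 melanocyte markers, Tyrp1 and Sox10 at 0 among them, went from 28.2 and 42.4 to 9.32 and 15 CPM. The 8 Merkel markers went from 27.65 and 45.1 to 22.4 and 13.2 CPM, with 5 of 8 lower in both TKO than in either Ctrl library. Erythroid markers reached 403.5 CPM in TKO 2 and 11.5 to 21.5 CPM in the other 3 libraries. Their part in the members' values was not tested.

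The cluster with Merkel markers, those of the touch receptor cells of the epidermis, held 34 and 24 Ctrl and 31 and 19 TKO cells and was not fitted. Its TKO cells are not shown to be Merkel cells: with components not corrected the Merkel cluster of the keratinocytes held 31 and 23 Ctrl cells and 0 TKO cells, and in the clustering of all cells it held 34, 26, 4 and 7. Wnk2 had 177 and 82 UMIs in Ctrl and 23 and 10 UMIs in TKO cells of this cluster, or 282 and 227 against 18.9 and 17.7 CPM. Cdh4 had 100 and 49 UMIs against 4 and 0, or 159.6 and 136 against 3.29 and 0 CPM. As the Ctrl and TKO cells of the cluster may differ in identity, nothing is read from these values for Merkel cells. Tspear overlapped between the groups, with 209 and 38.8 CPM in Ctrl and 105 and 168 CPM in TKO.

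Fibroblast-like cells of the same libraries, a cell type outside the K14-expressing epithelium, had no part in the choice of the genes and could be tested. Of the 9 members, 7 passed the low-count filter and 0 were called by edgeR. Over all 11522 genes 0.00868% were called, which is the single gene Hbb-bt, a beta globin whose UMIs numbered 6 and 9 in Ctrl but 4206 and 5745 in TKO. At an unadjusted p under 0.05 there were 526 genes, among them Cdh4 (p 0.00188) and Slitrk6 (p 0.0359) in the edgeR fit. DESeq2 called 13 genes, with 0 members among them. Erythroid markers summed to 25.02 and 29.3 CPM in Ctrl and 4686 and 15880 CPM in TKO fibroblast-like cells. Adamts9 had 267 and 192 CPM in Ctrl and 295 and 234 CPM in TKO (fitted log2 difference 0.18, SE 0.222, edgeR adjusted p 0.999). Ror1 had 425 and 580 CPM against 521 and 616 CPM (0.15, SE 0.238, edgeR adjusted p 0.999). Slc24a3 had 91.5 and 60.6 CPM against 94.0 and 88.2 CPM (0.23, SE 0.230, edgeR adjusted p 0.999). The groups of these 3 genes overlapped.

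The remaining fibroblast values were mixed. Slitrk6 had 20.8 and 19.8 CPM in Ctrl and 5.35 and 13.3 CPM in TKO (−1.22, SE 0.467, edgeR adjusted p 0.999), and 9530026P05Rik had 34.2 and 40.2 against 21.4 and 31.8 CPM (−0.53, SE 0.282, edgeR adjusted p 0.999). Cdh4 went the other way, with 20.1 and 13.6 CPM in Ctrl and 61.6 and 38.9 CPM in TKO, and the fitted log2 change of 1.54 (SE 0.315) did not pass the correction (edgeR adjusted p 0.795). Sox5 had 3.66 and 7.49 against 3.21 and 11.9 CPM. The 6 muscle markers summed to higher values in TKO as well, from 16.48 and 14.3 CPM in Ctrl to 133 and 68.7 CPM in TKO, with 3 of 6 higher in both TKO libraries and Myod1 at 0. Their part in the Cdh4 values was not tested. Immune markers summed to 727 CPM in the TKO 1 fibroblast-like cells and to 4.77 to 22.6 CPM in the other 3 libraries. A missed threshold does not show that levels are alike.

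To see whether the lower levels went together with the loss of silencing in single cells, TKO cells were parted by UMIs of 8 genes known from these libraries to appear in TKO: Npffr1, Gm11884, Col28a1, 1700030N03Rik, Gm42653, Gria3, Svop and D7Ertd128e. At 5000 UMIs per cell, 595 of 1117 TKO 1 and 475 of 1065 TKO 2 basal-like cells held at least 2 such UMIs, and 346 and 380 held 0. In Ctrl, 5 of 1577 and 1 of 1804 basal-like cells held at least 2. TKO cells with 0 of these UMIs were below the Ctrl level for each member. Slc24a3, at 343 CPM in Ctrl, had 141 CPM (95% Poisson interval 124 to 160) in TKO 1 and 63.2 CPM (52.4 to 75.5) in TKO 2 cells with 0, and 61.5 CPM (52.9 to 71.1) and 33.7 CPM (26.7 to 41.9) in those with at least 2. Wnk2 had 36.4 CPM (28.0 to 46.6) and 26.8 CPM (19.99 to 35.3) in cells with 0, and 17.1 CPM (12.8 to 22.5) and 17.7 CPM (12.8 to 23.9) in the others.

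**Figure D4:**
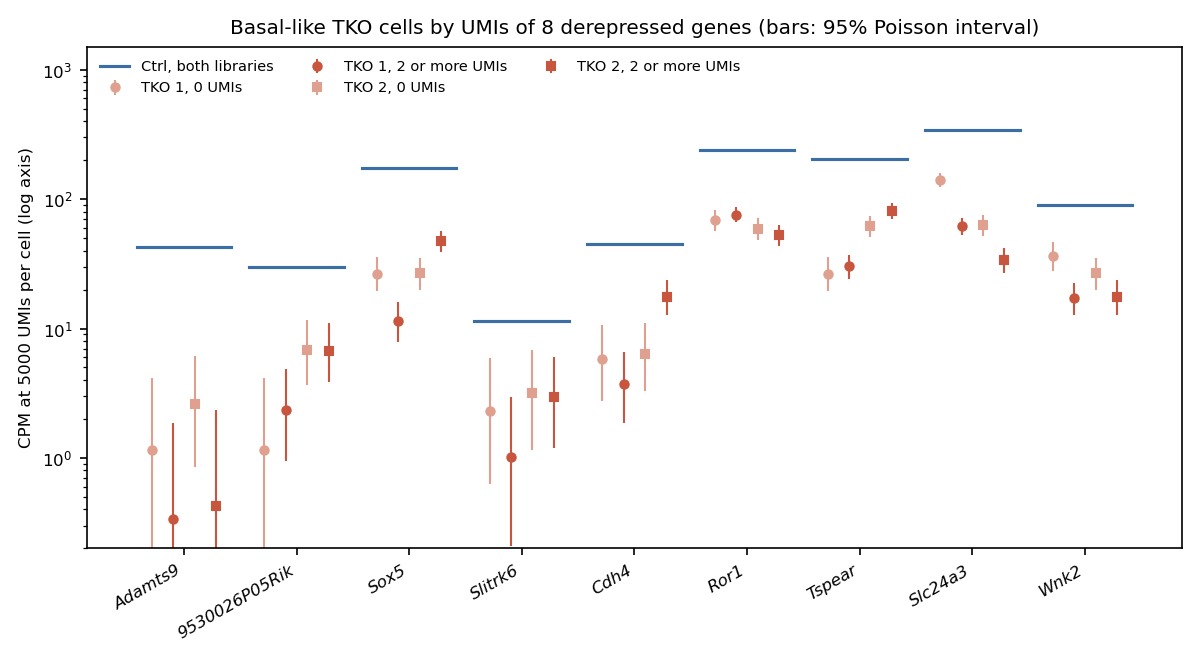
Basal-like TKO cells at 5000 UMIs each, parted by the UMIs of 8 derepressed genes, with CPM on a log axis, 95% Poisson intervals cut at the lower edge of the plot, and the Ctrl level as a blue line. All TKO points lie below the Ctrl line; Slc24a3 is lower in cells with 2 or more UMIs in both libraries, while Sox5 moves in opposite directions in TKO 1 and TKO 2.

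Other members did not follow that order. The counts of members below were not made over all genes, so nothing is read from them about the members. Of the 9 genes, 4 had a lower CPM in cells with derepressed transcripts in both TKO libraries, namely Adamts9, Slc24a3, Slitrk6 and Wnk2, and of these 4, Slc24a3 had intervals that did not overlap in either library. Those of Sox5 did not overlap in either library, in opposite directions. The Poisson intervals cover counting error of pooled UMIs only, not the spread between cells or embryos, and are no test of a difference. Sox5 was lower in such cells of TKO 1, at 11.4 CPM (7.92 to 16.0) against 26.6 CPM (19.5 to 35.5), and higher in those of TKO 2, at 47.2 CPM (38.8 to 56.7) against 26.8 CPM (19.99 to 35.3). Cdh4 in TKO 2 was at 17.7 CPM (12.8 to 23.9) against 6.32 CPM (3.26 to 11.0). Adamts9 rested on 2 and 1 UMIs in TKO 1 and 5 and 1 UMIs in TKO 2, in cells without and with derepressed transcripts. In the same order, Slitrk6 rested on 4 and 3 UMIs in TKO 1 and 6 and 7 UMIs in TKO 2. In differentiating-like cells of TKO 2, Sox5 had 160.7 CPM (135 to 189) in cells with derepressed transcripts and 36.5 CPM (22.6 to 55.8) in cells without. A cell with 0 UMIs of these genes may still have lost the mark, and with all UMIs kept, when cells with 0 were the shallower ones (a median of 27688 against 31426 UMIs in TKO 1), 8 of the 9 genes were lower in both libraries.

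Relatives of the 9 genes were then counted in the same fits, in 8 lists of families and pathways with the members left out. In basal-like cells 120 of 173 listed genes were tested, of which 18 fell, 10 rose and 92 were not called, with a median log2 change of −0.09. In differentiating-like cells 97 were tested, 4 fell and 2 rose. In hair follicle-like cells 121 were tested, 10 fell and 8 rose. Of all genes tested, 4.98% were lowered and 8.95% raised in basal-like cells, 0.609% and 1.32% in differentiating-like cells, and 2.6% and 2.77% in hair follicle-like cells. The median over all genes in basal-like cells was −0.01. The lists were drawn up with earlier results known, and these counts say nothing particular to them.

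Among ADAMTS proteases and proteoglycan genes, 4 of 14 tested fell and 2 rose in basal-like cells. Adamts20, the protease closest to Adamts9 and likewise able to cleave versican, rose: it had 2 and 5 UMIs in Ctrl and 43 and 33 UMIs in TKO basal-like cells, or 0.0555 and 0.146 against 1.15 and 1.01 CPM (fitted log2 difference 3.38, SE 0.522, edgeR adjusted p 0.0105, and 4.19 without Ctrl 2). Adamts20 rose in hair follicle-like cells too, from 1.61 and 1.95 CPM to 10.5 and 8.74 CPM (2.44, SE 0.278, edgeR adjusted p 0.00571). Adamts1 fell from 32.7 and 70.7 to 15.03 and 11.8 CPM (−1.96, SE 0.346, edgeR adjusted p 0.0158, and −1.29 without Ctrl 2) and Adamts6 from 28.8 and 25.4 to 11.0 and 13.9 CPM (−1.13, SE 0.167, edgeR adjusted p 0.00903). Adamts10 fell as well (−0.73, edgeR adjusted p 0.0349), a call lost without Ctrl 1 or Ctrl 2 and with the replicate block (0.0508). In the follicle, Adamts19 (−1.61, edgeR adjusted p 0.0116) and Adamts17 (−0.72, edgeR adjusted p 0.0361) fell. The Adamts17 call was lost without Ctrl 2 or TKO 1, at −0.697 and −0.536. In differentiating-like cells Adamts14, which processes procollagen, fell from 15.1 and 15.4 to 2.88 and 2.83 CPM (−2.49, edgeR adjusted p 0.0137), a call lost without Ctrl 1.

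**Figure D5:**
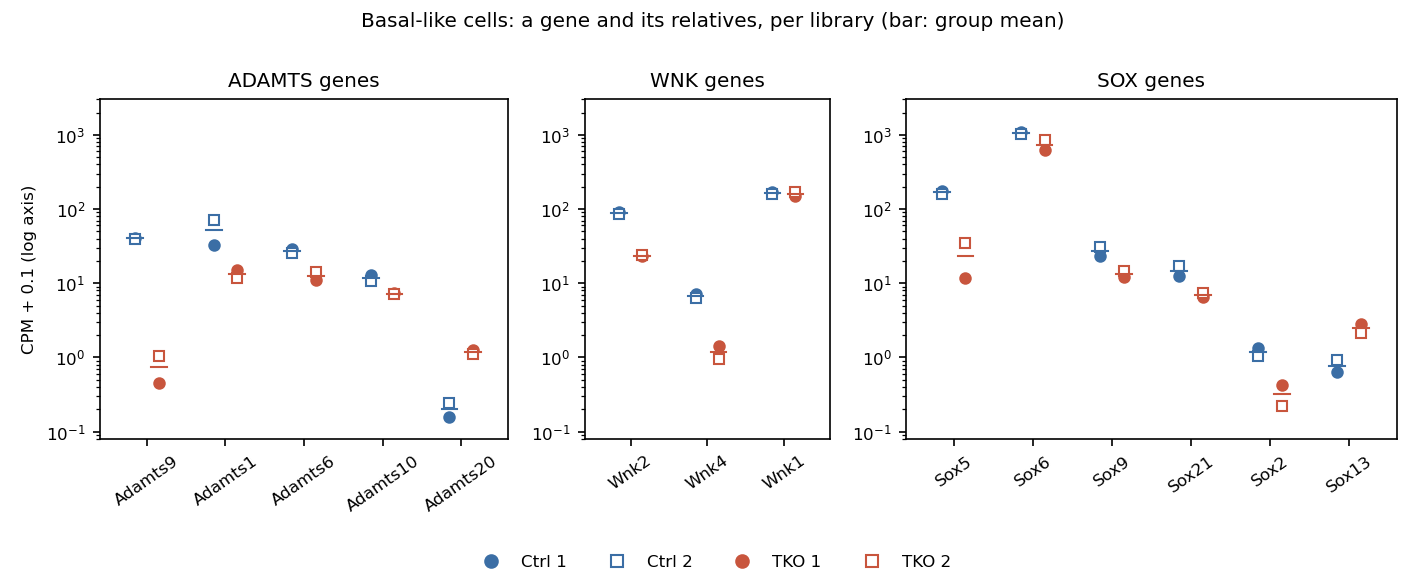
Basal-like cells: Adamts9, Wnk2 and Sox5 beside family members, per library, as CPM plus 0.1 on a log axis with bars at group means. Adamts20 and Sox13 are higher in TKO, Adamts1, Adamts6, Wnk4, Sox9, Sox21 and Sox2 are lower, and Wnk1 overlaps between the groups.

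The SOX list had 3 genes that fell and 1 that rose of 9 tested in basal-like cells. Sox6, the partner of Sox5, was not called there, at 1108 and 1031 CPM in Ctrl and 621 and 856 CPM in TKO (log2 change −0.54, SE 0.171, edgeR adjusted p 0.0873). In differentiating-like cells, however, Sox6 fell from 348 and 363 to 125.5 and 124 CPM (−1.59, SE 0.103, edgeR adjusted p 0.00793). Sox9, a regulator of hair follicle fate, fell in basal-like cells (−1.02, edgeR adjusted p 0.0161) and in hair follicle-like cells, from 156 and 225 to 57.7 and 66.8 CPM (−1.59, edgeR adjusted p 0.00633). Sox21, known from the hair cuticle, fell by 1.10 on the log2 scale in basal-like cells (edgeR adjusted p 0.0163). In the follicle Sox21 fell by 0.999 (edgeR adjusted p 0.0240), and both calls were lost without Ctrl 2. Sox2 fell from 45 and 32 UMIs to 12 and 4 UMIs (edgeR adjusted p 0.0305), a call lost without either Ctrl library, and Sox13 rose from 19 and 28 to 102 and 66 UMIs (1.81, edgeR adjusted p 0.02004), lost without Ctrl 1.

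Among the genes of Ror1's pathway, which orient cells in the plane of the epithelium, 4 of 21 tested fell and 2 rose in basal-like cells. The planar polarity cadherin Celsr2 fell from 53.1 and 50.03 to 29.7 and 28.2 CPM (−0.84, SE 0.101, edgeR adjusted p 0.00447), and in the follicle likewise (−0.88, edgeR adjusted p 0.0191, lost without Ctrl 2). The Wnt receptor Fzd2 fell (−0.54, edgeR adjusted p 0.0231), with a call lost without Ctrl 1 or Ctrl 2, at −0.590 and −0.497. Ankrd6 (0.70, edgeR adjusted p 0.00986) and Prickle2 (1.45, edgeR adjusted p 0.0100) rose. In hair follicle-like cells Wnt5a, a ligand of Ror1, fell from 121 and 130 UMIs to 3 and 18 UMIs (−3.04, SE 0.468, edgeR adjusted p 0.0164), a change of −4.59 without TKO 2 and −2.41 without TKO 1. Ankrd6 (0.78, edgeR adjusted p 0.0297) and Prickle2 (1.20, edgeR adjusted p 0.0325) rose there, each keeping its call in 1 of the 4 fits with a library left out. Ror2, its paralog, had 13.2 and 14.5 CPM against 1.43 and 5.50 CPM there (−1.91, SE 0.460, edgeR adjusted p 0.0622, −3.26 without TKO 2 and −1.29 without TKO 1) and was too low to test in basal-like cells, with at least 6 and at most 31 UMIs. Celsr1 fell in differentiating-like cells (−0.96, edgeR adjusted p 0.0435), with a call that was lost without either Ctrl library and with the replicate block (0.0783).

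Other adhesion and synapse genes were mostly not called. Of cadherins and catenins, 13 of 15 tested in basal-like cells did not pass, Cdh13 fell from 218 and 191 to 69.3 and 87.5 CPM (−1.39, SE 0.150, edgeR adjusted p 0.00317), and the catenin Ctnnd2 rose from 5.78 and 4.35 to 38.2 and 29.3 CPM (2.73, SE 0.193, edgeR adjusted p 0.000855). In the follicle Cdh13 fell (−0.81, edgeR adjusted p 0.0142) and Ctnnd2 rose (0.70, edgeR adjusted p 0.0335), the latter call kept in 1 of the 4 fits with a library left out. Cdh2, N-cadherin, was not tested, with 1 UMI in each Ctrl library and 8 and 5 in the TKO libraries. Slitrk5, the closest relative of Slitrk6 listed, had at most 1 UMI per library in basal-like cells. In the SLITRK list of 5 tested genes, the receptor phosphatase Ptprd rose (0.53, edgeR adjusted p 0.0208, lost without Ctrl 2).

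Of the ectodermal dysplasia genes listed with Tspear, 3 of 21 fell and 2 rose in basal-like cells. Eda2r, a receptor for ectodysplasin A2, rose from 52 and 23 UMIs to 418 and 378 UMIs (3.41, SE 0.341, edgeR adjusted p 0.00238, and 4.06 without Ctrl 1), and in differentiating-like cells from 2 and 0 to 83 and 77 UMIs (edgeR adjusted p 0.0215). It rose in the follicle too (2.55, edgeR adjusted p 0.0134). Edaradd, the adaptor of the ectodysplasin receptor Edar, fell in basal-like cells from 93.4 and 82.9 to 54.7 and 57.5 CPM (−0.66, edgeR adjusted p 0.0116) and in differentiating-like cells from 33.7 and 40.1 to 10.5 and 12.8 CPM (−1.72, edgeR adjusted p 0.0215). The homeobox gene Dlx3 fell in basal-like cells (−0.72, edgeR adjusted p 0.0336, with a call kept in 1 of the 4 fits with a library left out), and the connexin Gjb2 rose (1.47, edgeR adjusted p 0.0239). In the follicle Wnt10a rose (0.77, edgeR adjusted p 0.0303) and Pkp1 fell (−0.86, edgeR adjusted p 0.0283), both lost without Ctrl 1 or TKO 1, and Gjb2 rose (0.62, edgeR adjusted p 0.0359), lost without any 1 of the 4 libraries and with the replicate block (0.0559).

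For calcium transport, 2 of 21 genes tested fell and 1 rose in basal-like cells. The sodium-calcium exchanger Slc8a1 fell from 102 and 81.9 to 54.7 and 43.7 CPM (−0.91, SE 0.144, edgeR adjusted p 0.0110), and the inositol trisphosphate receptor Itpr2 from 33.6 and 30.7 to 18.3 and 19.8 CPM (−0.76, edgeR adjusted p 0.0122). The store-operated channel gene Orai2 rose from 10 and 28 to 130 and 113 UMIs (2.65, edgeR adjusted p 0.0146, 2.06 without Ctrl 1 and 3.62 without Ctrl 2), and in differentiating-like cells from 1 and 0 to 22 and 21 UMIs (edgeR adjusted p 0.0429, lost without either Ctrl library). The calcium pump Atp2b1 rose in the follicle (0.55, edgeR adjusted p 0.0237), with a call kept in 1 of the 4 fits with a library left out. Slc24a4, the paralog of Slc24a3, had 0 UMIs in the basal-like cells of each library. Of the WNK pathway, 1 of 14 genes tested fell: Wnk4 went from 7.05 and 6.13 to 1.34 and 0.855 CPM (−2.59, SE 0.277, edgeR adjusted p 0.00303), and from 48 and 49 to 5 and 6 UMIs in the follicle (−2.56, edgeR adjusted p 0.0145, lost without Ctrl 2). Wnk1 had 171 and 160 CPM in Ctrl and 149 and 172 CPM in TKO basal-like cells (−0.05, SE 0.117, edgeR adjusted p 0.832).

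Over the 12 sums of 4 libraries and 3 keratinocyte classes, the members fell into looser and closer pairs. Points share libraries, differ in depth and cover both genotypes, so Pearson's r of log2(CPM + 1) is only a description. The members were all chosen as lower in TKO, which by itself favours a positive r among them and with other lowered genes. Adamts9 and 9530026P05Rik had r = 0.95, and Sox5 had 0.88 with Adamts9. Slc24a3 and Wnk2 had 0.89, Ror1 and Wnk2 0.88, and Sox5 and Slc24a3 0.33. Slitrk6 was too low on average to enter. Among 10766 genes of at least 5 CPM on average, the most alike were Ssbp2 (0.973), Rerg (0.969) and N4bp2l2 (0.969) for Adamts9, and Trpm4 (0.964), Zfp975 (0.962) and Rcor3 (0.950) for 9530026P05Rik. Sox5 was closest to Sos2 (0.982), Chd9 (0.972) and Gm43788 (0.943). Wnk2 was closest to Mir205hg (0.973), the host transcript of an epithelial microRNA, then Gm9385 (0.956) and Ctdsp2 (0.949). For Cdh4 these were Phka2 (0.931), Fmo1 (0.930) and Cpa6 (0.929), for Ror1 Serpina3h (0.922), Lmx1b (0.914) and Gm9843 (0.911), for Tspear Zfp263 (0.950), Gpld1 (0.949) and 9430091E24Rik (0.936), and for Slc24a3 Arhgef26 (0.945), Gramd2 (0.936) and Rps19 (0.932).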

How the data were processed

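The deposited files hold raw UMI counts per gene and cell from Cell Ranger (7.1.0 per the file headers; the study's methods name another version) on GRCm39; the annotation release, the use of intronic reads and strand counting were not given in the sources used here. The authors aligned libraries with Harmony and tested single cells in Seurat. Here cells with at least 2000 genes and under 10% mitochondrial UMIs were kept, and the 0.8% per 1000 barcodes with the highest doublet scores (457 cells) were left out; the automatic threshold had marked only 2 cells in each Ctrl library. Leiden clustering (resolution 1, 2000 variable genes, 30 components, a reimplemented Harmony; scanpy 1.11.5) named classes from fixed markers with at least 3 detected. Keratinocytes were clustered again without the 1353 genes differing between genotypes. UMIs were summed per class and library and tested with edgeR 4.0.16 (quasi-likelihood, TMM, filterByExpr, genotype only, R 4.3.3), with Benjamini-Hochberg adjustment over all genes tested and calls under 0.05. CPM were computed from the deposited counts, per class and library. With 2 libraries per genotype, p-values measure only the spread between these samples. Alternatives were DESeq2 1.42.0, no filter, the replicate number as a block, each library left out, 5000 UMIs per cell, doublets kept, resolution 0.5 and uncorrected components. The fit was run on simulated counts before use, with a fixed spread between libraries, which does not give its rate of false calls in these data.

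The members, lists and derepressed genes were chosen with earlier results of these data known. Named were all members, at most 4 called relatives per list and class by adjusted p, the closest paralogs and, for likeness, 3 genes per member. Named after their values were seen were Hbb-bt, Adamts19 in basal-like cells and the leading genes of clusters. The authors' own comparisons were not used. Promoter sequences were read from GRCm39 at GENCODE vM39 canonical starts. The same-numbered libraries deviated in opposite directions (r = −0.212 in basal-like cells), and nothing in the labels says that a number marks a litter or batch.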

Additional observations from a re-analysis of the deposited data

Results flagged for a closer look

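Cdh4 is flagged because both TKO libraries were below both Ctrl libraries in basal-like, differentiating-like and hair follicle-like cells and above both in fibroblast-like cells, where the fitted log2 difference was 1.54 (SE 0.315) with an edgeR adjusted p of 0.795; the difference between the classes was not tested. Leaving out each library in turn gave 1.19 to 1.84 in fibroblast-like cells. The muscle markers moved the same way there, from 16.48 and 14.3 CPM in Ctrl to 133 and 68.7 CPM in TKO, and their part was not tested.

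Adamts19, a protease related to Adamts9, rose in basal-like cells from 201 and 164 UMIs to 395 and 267 UMIs (log2 change 0.84, SE 0.199, edgeR adjusted p 0.0372) and fell in hair follicle-like cells from 1334 and 1850 to 247 and 476 UMIs (log2 change −1.61, SE 0.222, edgeR adjusted p 0.0116). Every TKO library moved the same way within each class, and the difference between the classes was not tested.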

How the results depend on the processing

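The 2 libraries per genotype limit every statement. Every alternative reuses the contrast that chose the members, so their agreement across the alternatives supports nothing. In basal-like cells all 108 alternative log2 changes of the members were below 0, and in hair follicle-like cells 106 of 107. Sox5 in differentiating-like cells had the other sign in 6 of 12 alternatives, from −2.04 to 0.88. The lowered set held 9 members in basal-like cells under every alternative run, between 4 and 6 in the differentiating-like class and between 3 and 7 in the follicle.

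Against 2509 genes called in basal-like cells there were 4091 with no filter, 1359 at 5000 UMIs, 1530 with uncorrected components and 1333 (without Ctrl 2) to 3422 (without TKO 2) with 1 library left out. For 260 in differentiating-like cells the counts were 729 with DESeq2, 1839 with no filter, 170 at resolution 0.5, 445 with uncorrected components and 99 (without Ctrl 1) to 1504 (without TKO 2) with 1 library left out. For 819 in hair follicle-like cells they were 468 with no filter, 439 at 5000 UMIs, 1839 with doublets kept and 363 (without Ctrl 2) to 858 (without TKO 2) with 1 library left out. For 1 in fibroblast-like cells (526 genes at an unadjusted p under 0.05) they were 13 with DESeq2, 356 with no filter, 5 at 5000 UMIs, 0 with doublets kept (431 unadjusted, edgeR) and 0 (without Ctrl 2) to 95 (without TKO 2) with 1 library left out.

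Related genes called were 28 in basal-like cells, but 52 with no filter, 18 at 5000 UMIs, 15 with uncorrected components and 21 to 42 without 1 library. In differentiating-like cells they were 6, but 13 with DESeq2, 27 with no filter and 4 to 23 without 1 library, and in hair follicle-like cells 18, but 9 with no filter, 7 at 5000 UMIs, 33 with doublets kept and 8 to 20 without 1 library. Members lower in both TKO libraries in cells with derepressed transcripts were 4, but 3 when cells needed 3 UMIs of such transcripts and not 2, where Slitrk6 dropped out, and 8 unthinned. The cause of these shifts was not tested, and the counts by derepressed transcripts were not made over all genes.

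With the replicate block, 2232 genes were called in basal-like, 196 in differentiating-like, 736 in hair follicle-like and 6 in fibroblast-like cells. Since the same-numbered libraries deviated in opposite directions, a crossed replicate block, chosen after seeing the data, gave 3673, 931 and 1333 genes and 39, 15 and 32 related genes in the 3 keratinocyte classes.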
